A study of Homo sapiens with 5 samples.

Results

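The Eph receptors are the largest family of receptor tyrosine kinases, and the ephrins are their ligands on neighbouring cells. The expression of 10 of these genes, which were chosen by name, was compared between HCC827/GR and HCC827 cells. They were the receptors EPHA1, EPHA2, EPHA4, EPHB2, EPHB3 and EPHB4 and the ligands EFNA1, EFNA5, EFNB1 and EFNB2. Each was read from its own entry in the deposited table of 37181 genes and assembled loci, and where a symbol had several entries the one with the highest mean was used. All 10 reached the minimum level for testing, and they were 10 of 16189 entries tested. EFNB2, EPHA1 and EPHB3 were lower in HCC827/GR cells, and no member was higher by the adjusted p. Of these, EPHA1 and EPHB3 reached the minimum level only through HCC827 cells. EPHA2, the most abundant member in both cell lines, showed no difference past the threshold.

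HCC827 is a human lung adenocarcinoma cell line whose EGFR gene carries an activating deletion in exon 19. HCC827/GR cells are its gefitinib-resistant derivative and carry the same deletion. They were selected with rising doses of gefitinib, an inhibitor of the EGFR kinase, over more than 6 months. There were 3 libraries of HCC827/GR cells (replicates 1, 2 and 3) and 2 of HCC827 cells (replicates 2 and 3), and both groups come from 1 parental line. Whether HCC827/GR is a clone or a pool, and whether the replicates were separate cultures, is not given in the sources used here. The p-values therefore measure only the spread between these libraries, which may be technical. The study's methods describe paired-end mRNA libraries from RNA without ribosomal RNA, whereas the sample labels describe a single-end small-RNA library, and the values do not settle the layout. Protein-coding genes took between 67.3% and 79.3% of the summed FPKM of a library.

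Ephrins stay attached to the cell that makes them, so a receptor is bound where cells touch. A-type ephrins are held by a lipid anchor and bind mainly EphA receptors, while B-type ephrins cross the membrane and bind mainly EphB receptors. The receptor-bearing cell responds through its kinase, which is called forward signalling, and B-type ephrins signal back into their own cell through their tails. In epithelia these pairs are known for keeping cell populations apart and for regulating cell contacts and migration. EPHA2 is known for its abundance in many carcinomas.

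The sequences just before the RefSeq transcription starts of the 3 genes called lower are shown. Because EPHA1 and EPHB3 reached the minimum level only through HCC827 cells, this choice follows the calls and supports nothing further. Each run is the 250 bases upstream on the gene's own strand in GRCh38.p14. Capitals mark CAGGTG or its reverse complement CACCTG, an E-box that ZEB and Snail family repressors are known to bind. The windows are chr7:143408857-143409106 for EPHA1, chr13:106535663-106535912 for EFNB2 and chr3:184561535-184561784 for EPHB3, with EPHB3 on the plus strand and the others on the minus strand.
EPHA1: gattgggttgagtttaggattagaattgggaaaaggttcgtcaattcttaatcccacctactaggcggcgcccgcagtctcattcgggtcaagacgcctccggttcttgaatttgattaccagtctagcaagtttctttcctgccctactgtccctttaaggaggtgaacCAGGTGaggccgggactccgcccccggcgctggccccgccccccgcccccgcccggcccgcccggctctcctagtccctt
EFNB2: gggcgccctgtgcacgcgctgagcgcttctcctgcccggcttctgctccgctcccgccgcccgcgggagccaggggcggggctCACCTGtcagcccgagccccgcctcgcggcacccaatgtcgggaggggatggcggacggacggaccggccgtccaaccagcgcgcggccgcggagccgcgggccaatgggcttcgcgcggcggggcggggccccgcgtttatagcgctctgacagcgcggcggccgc
EPHB3: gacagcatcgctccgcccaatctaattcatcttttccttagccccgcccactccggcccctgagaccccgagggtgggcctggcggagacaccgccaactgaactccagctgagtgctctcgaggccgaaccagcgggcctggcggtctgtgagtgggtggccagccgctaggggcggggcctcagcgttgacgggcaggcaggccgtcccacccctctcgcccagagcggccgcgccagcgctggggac
The E-box lay 80 bases upstream of the EPHA1 start and 167 bases upstream of the EFNB2 start. The EPHB3 window held none. All 10 members matched a RefSeq window, with 2 windows each for EPHA4 and EPHB2. The E-box was in 4 of the 12 windows, those of EPHA1 and EFNB2 and both overlapping windows of EPHB2, a gene that was not called. It was in 17.5% of all 35116 windows of this length. The AP-1 motif TGANTCA, searched on both strands, was in 0 of the 12 windows and in 6.57% of all windows. G and C made up 59.2% of the EPHA1 window, 78.4% of the EFNB2 window and 70.0% of the EPHB3 window, and the median of all windows was 58.0%. A match describes the letters only, and no binding was measured.

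Expression is given as FPKM, in which fragments are scaled by the length of the transcript and the total sequenced, and which the authors estimated with StringTie and Ballgown. Since FPKM is scaled for length, levels of different genes can be set side by side, but it keeps no read counts and the depth of each library is unknown. Differences were tested with limma on log2(FPKM + 1) across the 16189 entries that averaged 0.5 FPKM or more. The Benjamini-Hochberg adjustment covered all of them. On this scale the change of a gene near or below 1 FPKM is understated. An exact permutation of 3 libraries against 2 cannot give a two-sided p below 0.1, so it cannot pass the threshold for any single gene. It gave 0.1 for EPHA1, EPHA4, EPHB2, EPHB3, EFNB1 and EFNB2, 0.2 for EPHA2 and EFNA5, and 0.6 for EPHB4 and EFNA1.

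Of the 10 members, 3 were lower and 0 higher in HCC827/GR cells at an adjusted p under 0.05, and 7 were not called. By the same rule 5.71% of all entries tested were lower and 5.26% were higher. At an unadjusted p under 0.05, 4 members were lower and 1 was higher, against 13.8% and 13.4% of all entries. The study used Ballgown with a fold change past 2 or 0.5 and an unadjusted p under 0.05. With limma's fold on log2(FPKM + 1) and its p, such limits gave 3 members lower and 0 higher, against 3.97% and 2.96% of all entries. With the ratio of the mean FPKM as the fold, added after seeing the data, 4 were lower and 1 was higher, EFNB1 and EPHA4 being the added ones, against 7.42% and 5.68%. The libraries of the cell lines did not overlap for 7 members, 4 lower and 3 higher, where 23.4% of all entries were lower and 22.8% higher without overlap. The median log2 fold change of the members was -0.15 and their median absolute change was 0.53, beside 0.00 and 0.27 for all entries. EPHA1 and EPHB3 reached the minimum level only through HCC827 cells, and EPHA4 only through HCC827/GR cells. These counts therefore describe the members and support nothing further.

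**Figure D1:**
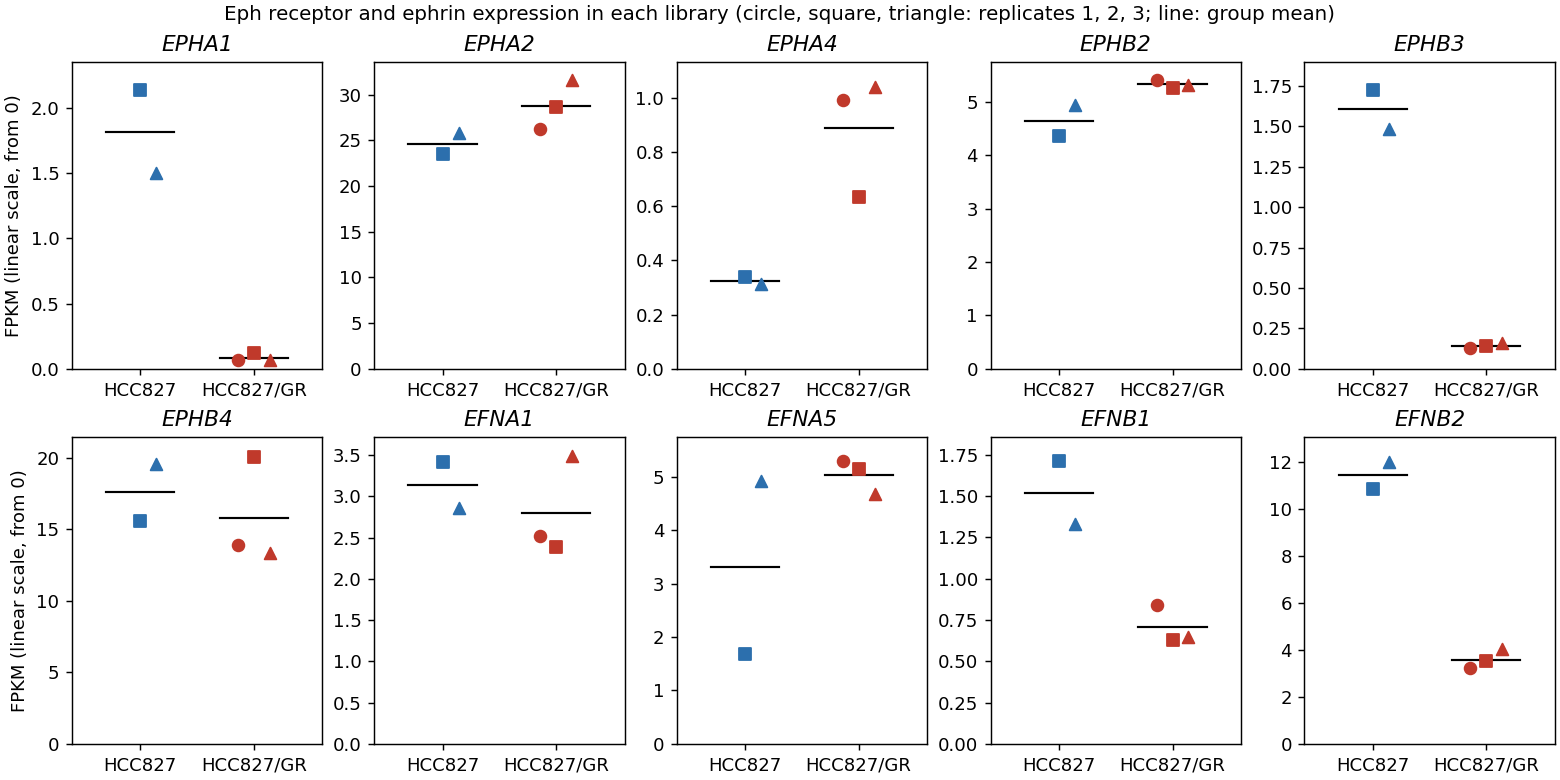
FPKM of the 10 members in each library on linear axes from 0, with 1 symbol per library (blue for HCC827, red for HCC827/GR) and a line at each group's mean. For EFNB2, EPHA1, EPHB3 and EFNB1 every HCC827/GR library lies below both HCC827 libraries, and for EPHA4, EPHA2 and EPHB2 every one lies above.

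EFNB2, a B-type ephrin and the main ligand of EPHB4, lies at chr13:106489731-106535662 on the minus strand (GRCh38, GENCODE release 29). Its FPKM was 3.22, 3.52 and 4.04 in HCC827/GR replicates 1, 2 and 3, and 10.9 and 12.01 in HCC827 replicates 2 and 3. All HCC827/GR libraries were far below both HCC827 libraries. The mean was 3.59 ± 0.416 (SD, n = 3) against 11.4 ± 0.798 (SD, n = 2). EFNB2 fell by 1.44 on the log2 scale (SE 0.117, limma adjusted p = 0.00661). In the order of levels it went from place 2278 of 16189 entries in HCC827 cells to place 6850 in HCC827/GR cells. The fall passed the threshold without each HCC827/GR library in turn, with limma adjusted p up to 0.037. Without HCC827 replicate 2 or 3 the log2 fold change was -1.51 or -1.38. Ballgown's model, recoded here for these libraries, shares no spread between genes and gave an adjusted p of 0.0960. In bulk RNA, fewer cells with a transcript and less of it per cell cannot be told apart, here and for the other members.

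EFNB1, the other B-type ephrin among the members, is known as the gene of the X-linked craniofrontonasal syndrome and lies at chrX:68828997-68842147 on the plus strand. Its FPKM was 0.839, 0.630 and 0.646 in HCC827/GR cells and 1.71 and 1.33 in HCC827 cells. The groups did not overlap. The log2 fold change was -0.56 with a 95% interval from -0.92 to -0.21, and limma's adjusted p of 0.0706 missed the threshold. When only protein-coding genes were kept and scaled to the same total, the adjusted p was 0.0491. Values on both sides of EFNB1 were also below 0. All 10 of the nearest tested protein-coding genes, 5 on each side, had a log2 fold change below 0, with a median of -0.92 and a range from -2.75 to -0.12. Of these, 5 fell by the adjusted p, among them LAS1L, IGBP1, PDZD11 and KIF4A, and these names were chosen after their values were seen. Of 378 tested protein-coding genes on the X chromosome, 79 (20.9%) were lower and 14 higher by the adjusted p, with a median log2 fold change of -0.18. On the other chromosomes 524 (5.00%) of 10486 were lower and 652 higher, with a median of 0.04. The part of this regional shift in the EFNB1 values was not tested. Around EFNB2 the 10 neighbours had a median of 0.28, with 2 higher and 1 lower by the adjusted p. Their range ran from -0.59 to 1.45. The closest neighbour stood at 0.59 on one side of EFNB2 and at -0.59 on the other. Whether the fall of EFNB2 has a local part was not tested. The neighbours of EPHA1 had a median of 0.28 with 2 higher and 0 lower, and those of EPHB3 a median of -0.08 with 0 called.

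EFNA5, an A-type ephrin that also binds EPHB2, had 14 entries under its symbol. The entry with the highest mean holds its Ensembl transcripts (chr5:107376889-107670895, minus strand). It had 5.29, 5.15 and 4.67 FPKM in HCC827/GR cells and 1.69 and 4.92 in HCC827 cells. HCC827 replicate 2 stood alone at a low level, while replicate 3 lay among the HCC827/GR libraries. The log2 fold change was 0.60 with a 95% interval from -0.31 to 1.502, and limma's adjusted p was 0.349. Leaving out HCC827 replicate 3 gave 1.16 and an adjusted p of 0.0424, and leaving out HCC827 replicate 2 gave 0.03. The other 13 entries hold no Ensembl transcript and summed to 9.24, 9.35 and 5.97 FPKM in HCC827/GR cells and to 25.3 and 6.66 in HCC827 cells. HCC827 replicate 2, the library with the lowest main entry, thus had the highest sum of fragments. With all entries added up, the log2 fold change of EFNA5 was -0.41. No direction could be given for this gene.

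EFNA1, an A-type ephrin and a ligand of EPHA2, lies at chr1:155127460-155134857 on the plus strand. It had 2.53, 2.39 and 3.49 FPKM in HCC827/GR cells and 3.42 and 2.86 in HCC827 cells, and the groups overlapped. Its log2 fold change was -0.13 with a 95% interval from -0.56 to 0.30 and a limma adjusted p of 0.669.

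EPHA1, the first Eph receptor to be identified, lies at chr7:143390289-143408892 on the minus strand. It had 0.0693, 0.121 and 0.0684 FPKM in HCC827/GR cells and 2.14 and 1.502 in HCC827 cells. It was close to 0 in every HCC827/GR library and above 1 FPKM in both HCC827 libraries. EPHA1 fell by 1.37 on the log2 scale (SE 0.158, limma adjusted p = 0.0130). It reached the minimum level for testing only through HCC827 cells, so this p supports nothing beyond the values themselves. With a pseudocount of 0.1 in place of 1 the log2 fold change was -3.36, and the ratio of the mean levels was 21.1 in favour of HCC827. Without HCC827/GR replicate 1 limma's adjusted p was 0.0543, and Ballgown's model gave 0.196. The antisense gene EPHA1-AS1 overlaps this locus and had between 0.0751 and 0.102 FPKM in all 5 libraries. Whether the counting used strand is not given in the sources used here, so fragments from the stretch that both genes share cannot be told apart. The groups overlapped for the separate EPHA1-AS1 entry.

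EPHB3, a B-type receptor known for positioning cells in the intestinal epithelium, lies at chr3:184561784-184582409 on the plus strand. It had 0.128, 0.139 and 0.161 FPKM in HCC827/GR cells and 1.73 and 1.49 in HCC827 cells. The 3 low values differed little among themselves and were far below both HCC827 libraries. EPHB3 fell by 1.19 on the log2 scale (SE 0.130, limma adjusted p = 0.0118). Like EPHA1 it reached the minimum level for testing only through HCC827 cells, so this p supports nothing beyond the values themselves. With a pseudocount of 0.1 the log2 fold change was -2.81, and the ratio of the mean levels was 11.3 in favour of HCC827. Its adjusted p was 0.0508 without HCC827/GR replicate 1 and 0.144 in Ballgown's model.

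EPHB2, the receptor that shares the intestinal role of EPHB3, lies at chr1:22710839-22921500 on the plus strand. It had 5.41, 5.25 and 5.31 FPKM in HCC827/GR cells and 4.36 and 4.93 in HCC827 cells. Every HCC827/GR library was above both HCC827 libraries, by a small margin. The log2 fold change was 0.17 with a 95% interval from -0.07 to 0.41 and a limma adjusted p of 0.325. That interval lies wholly above the one of EPHB3, which ran from -1.53 to -0.85.

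EPHB4, the main receptor of EFNB2 and known for separating veins from arteries, lies at chr7:100802565-100827521 on the minus strand. It had 13.9, 20.1 and 13.4 FPKM in HCC827/GR cells and 15.6 and 19.6 in HCC827 cells. The groups overlapped and the spread within HCC827/GR cells was wide. The log2 fold change was -0.16 with a 95% interval from -0.73 to 0.40 and a limma adjusted p of 0.690.

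EPHA2, which can be phosphorylated on serine without a ligand by kinases such as AKT, lies at chr1:16124337-16156087 on the minus strand. It had 26.2, 28.6 and 31.6 FPKM in HCC827/GR cells and 23.5 and 25.7 in HCC827 cells. The lowest HCC827/GR library was just above the highest HCC827 library. The log2 fold change was 0.22 with a 95% interval from -0.09 to 0.52, and limma's adjusted p of 0.315 missed the threshold.

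EPHA4, which binds ephrins of both types, lies at chr2:221418027-221574202 on the minus strand. It had 0.992, 0.634 and 1.04 FPKM in HCC827/GR cells and 0.337 and 0.311 in HCC827 cells. It was the member with the lowest level in HCC827 cells, and the groups did not overlap. The log2 fold change was 0.51 with a 95% interval from 0.09 to 0.92, and limma's adjusted p was 0.127. With a pseudocount of 0.1 it was 1.19 and still not called, with an adjusted p of 0.106.

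**Figure D2:**
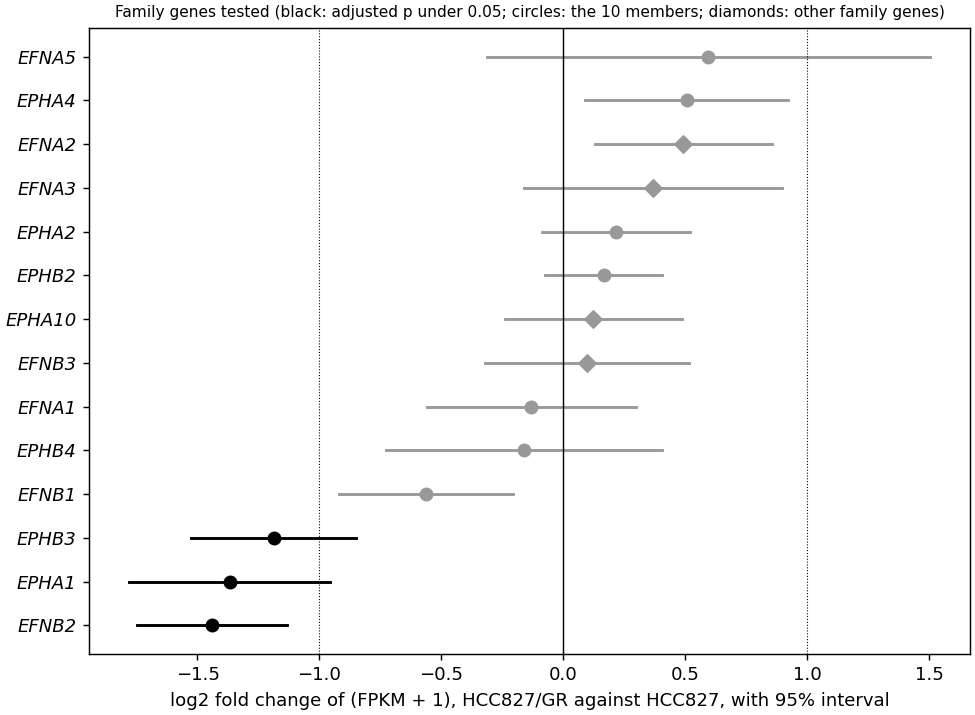
Log2 fold change of (FPKM + 1) in HCC827/GR against HCC827 cells for the 14 family genes tested, with limma's 95% interval as a bar and dotted lines at -1 and 1. The intervals of EPHB3, EPHA1 and EFNB2 (black) end at -0.85, -0.96 and -1.13 on their upper side, and the interval of EFNA5 is the widest.

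The order of the levels differed between the cell lines. In HCC827 cells the mean FPKM was 24.6 for EPHA2, 17.6 for EPHB4, 11.4 for EFNB2, 4.64 for EPHB2, 3.30 for EFNA5, 3.14 for EFNA1, 1.82 for EPHA1, 1.61 for EPHB3, 1.52 for EFNB1 and 0.324 for EPHA4. There the range over libraries of EFNA5 overlapped those of EPHB2, EFNA1, EPHA1, EPHB3 and EFNB1. The ranges of EPHA1, EPHB3 and EFNB1 also overlapped each other. In HCC827/GR cells it was 28.8 for EPHA2, 15.8 for EPHB4, 5.32 for EPHB2, 5.03 for EFNA5, 3.59 for EFNB2, 2.80 for EFNA1, 0.889 for EPHA4, 0.705 for EFNB1, 0.143 for EPHB3 and 0.0862 for EPHA1. There the ranges overlapped for EPHB2 and EFNA5, for EFNB2 and EFNA1, and for EPHA4 and EFNB1. By these entries EFNB2 was the most abundant ephrin in both HCC827 libraries and lay below EFNA5 in all HCC827/GR libraries. With all EFNA5 entries added up, EFNA5 was above EFNB2 in HCC827 replicate 2 as well, with 57.1% of the ephrin sum against 23.0%.

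**Figure D3:**
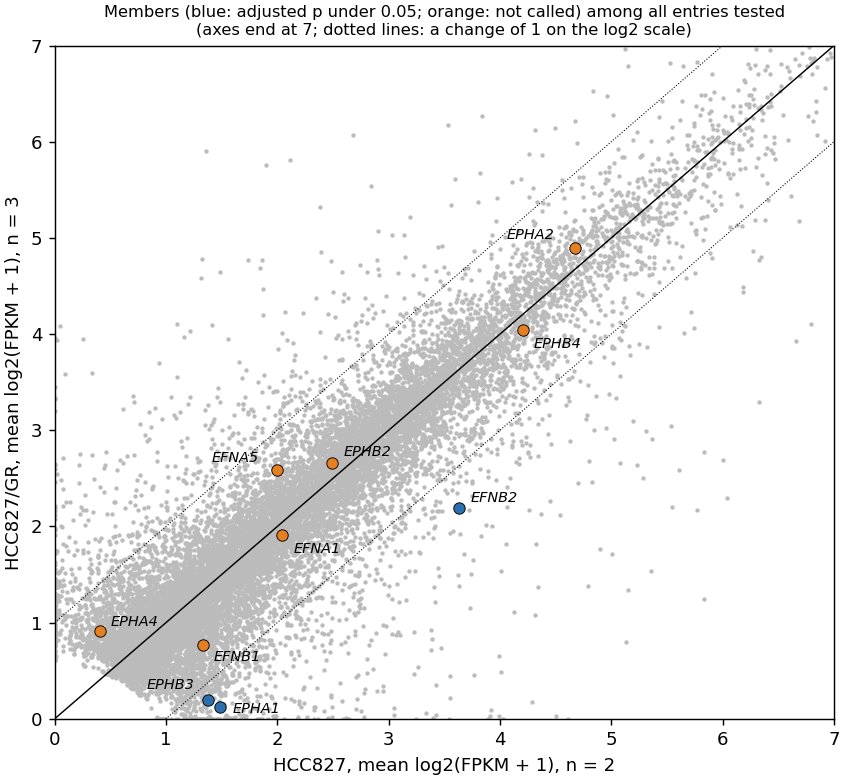
Mean log2(FPKM + 1) in HCC827 cells (x axis) and HCC827/GR cells (y axis) for all 16189 entries tested (grey, axes ending at 7) and the 10 members (blue where the adjusted p was under 0.05, orange otherwise), with dotted lines at a change of 1. EFNB2 is the member farthest below the diagonal at -1.44, and EPHA1 and EPHB3 lie near the x axis.

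Of the 12 other genes of the family, 4 were tested and none of these was called by limma's adjusted p. EFNA2, an A-type ephrin, had 0.767, 0.976 and 0.917 FPKM in HCC827/GR cells and 0.262 and 0.424 in HCC827 cells. The groups did not overlap, but the log2 fold change of 0.49 had a limma adjusted p of 0.102. This was 0.0459 when only protein-coding genes were kept and scaled. EFNA2 reached the minimum level only through HCC827/GR cells, so neither p supports anything further. EPHA10, a receptor without an active kinase, had a log2 fold change of 0.12 and EFNB3 one of 0.10, which was -0.09 without HCC827 replicate 3. The entry of EFNA3 also joins transcripts of EFNA4 and AL691442.1, so its log2 fold change of 0.37 cannot be given to EFNA3 alone. EPHA6, EPHA7, EPHB1 and EPHB6 were below 0.03 FPKM in every library and were not tested. EPHA3, EPHA5, EPHA8 and EFNA4 had no entry of their own and were not analysed here.

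Summed over the family, receptor levels overlapped between the cell lines, while ephrin levels were lower in every HCC827/GR library. The receptors with an entry summed to 47.5, 56.1 and 52.5 FPKM in HCC827/GR cells and to 48.5 and 54.5 in HCC827 cells. The means were 52.1 ± 4.31 (SD, n = 3) and 51.5 ± 4.25 (SD, n = 2), and the groups overlapped. The ephrins summed to 17.0, 16.9 and 17.3 FPKM in HCC827/GR cells and to 22.0 and 23.8 in HCC827 cells, with no overlap. The lower sum was that of the B-type ephrins, with 5.44 ± 0.197 FPKM against 13.99 ± 0.161. A-type ephrins moved the other way, with 11.6 ± 0.0995 against 8.88 ± 1.13, a sum that contains the unsettled EFNA5 entry. With all EFNA5 entries the A-type sums were 21.0, 20.9 and 17.6 FPKM against 33.4 and 16.3, so the groups overlapped. The sum of all ephrins was then 25.3 ± 1.72 against 38.8 ± 11.9, with no overlap.

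EFNB2 made up 18.9%, 20.9% and 23.3% of the ephrin sum in HCC827/GR cells and 49.6% and 50.5% in HCC827 cells. With all EFNA5 entries in the sum, an alternative chosen after seeing the data, the shares were 12.2%, 13.4% and 17.4% against 23.0% and 39.5%. They were thus lower in every library and still did not overlap. The ratio of EFNB2 to its receptor EPHB4 was 0.237 ± 0.0638 in HCC827/GR cells and 0.655 ± 0.0596 in HCC827 cells, without overlap. For EFNA1 and its receptor EPHA2 the ratio was 0.0968 ± 0.0135 against 0.128 ± 0.0245, where the highest HCC827/GR library (0.110) lay just below the lowest HCC827 library (0.111). EPHA2 took 55.4% ± 4.52 of the receptor sum in HCC827/GR cells and 47.9% ± 0.876 in HCC827 cells. The summed receptors exceeded the summed ephrins 3.05 ± 0.266 times in HCC827/GR cells and 2.25 ± 0.0592 times in HCC827 cells, or 2.07 ± 0.232 and 1.41 ± 0.540 times with all EFNA5 entries. These sums and ratios are descriptions without a test.

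**Figure D4:**
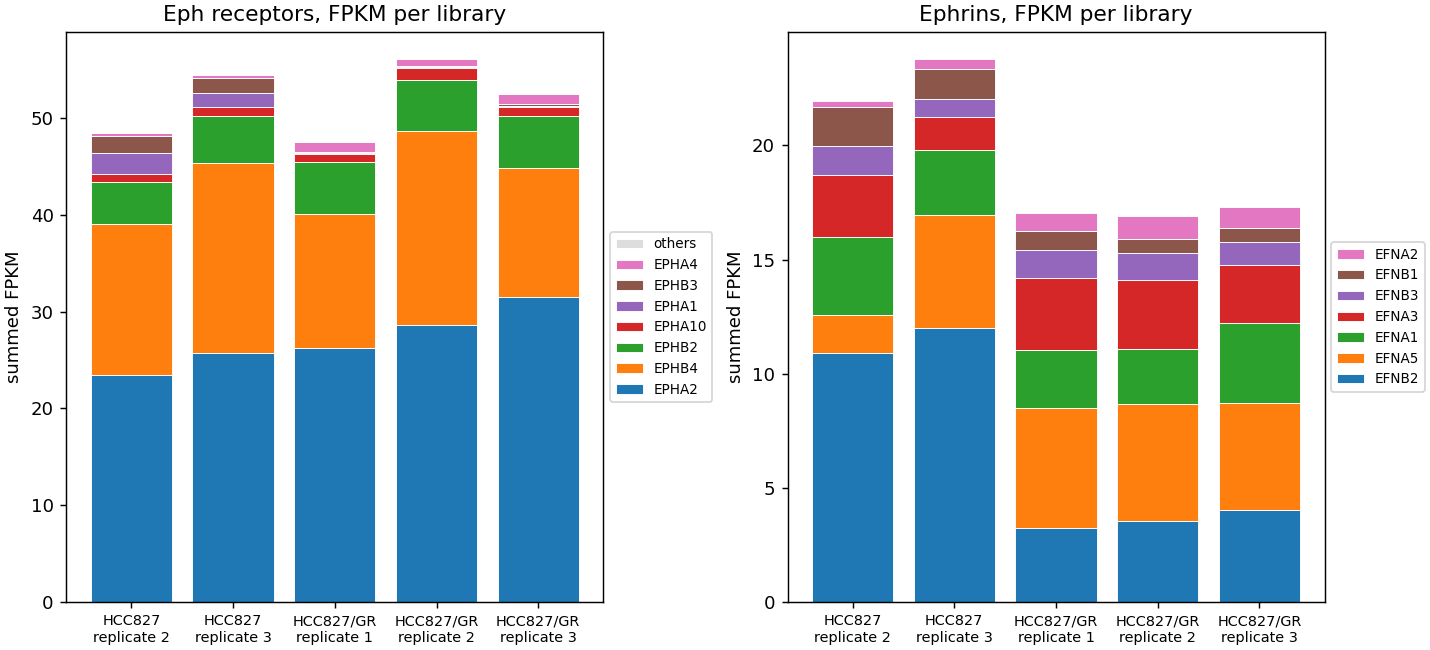
Summed FPKM of the Eph receptors (left) and the ephrins (right) in each library, stacked by gene from 0. The receptor bars lie between 47.5 and 56.1 in both cell lines, and the EFNB2 segment at the base of the ephrin bars is shorter in every HCC827/GR library.

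Genes that act with or downstream of Eph receptors were taken from a list of 59, of which 57 had an entry and 50 were tested. By limma's adjusted p, 2 were higher and 6 lower in HCC827/GR cells and 42 were not called, against the 5.26% and 5.71% of all entries given above. The median log2 fold change of the list was 0.01 and its median absolute change 0.26. The called genes were spread over 4 of the 5 role groups. Among 18 adaptors and phosphatases tested, 1 was higher and 2 were lower. Of 15 regulators and effectors of small GTPases, 0 were higher and 3 lower. The remaining groups held 1 higher and 1 lower call. Of 9 kinases, 1 was higher and 0 lower. Of 5 partners in reverse signalling, 0 were higher and 1 lower. None of the 3 tested genes for cleavage, which include ADAM10 and PSEN2, was called, although PSEN2 had an unadjusted p of 0.00824.

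GRB7, an adaptor with an SH2 domain that lies beside ERBB2, had 3.05, 2.58 and 2.56 FPKM in HCC827/GR cells and 14.7 and 11.9 in HCC827 cells. It fell by 1.93 on the log2 scale (SE 0.133, limma adjusted p = 0.00469). SH2D3A, an adaptor that binds BCAR1 family proteins, had 0.734, 0.774 and 0.775 FPKM against 2.99 and 2.62, and it fell by 1.11 (SE 0.104, adjusted p = 0.00926). Both falls passed the threshold without each library in turn.

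FYN, a SRC family kinase that takes part in Eph signalling, had 4.09, 2.79 and 4.04 FPKM in HCC827/GR cells and 0.822 and 0.745 in HCC827 cells. It rose by 1.37 on the log2 scale (SE 0.168, limma adjusted p = 0.0147), and the groups were far apart. SRC had a log2 fold change of -0.24, YES1 of -0.21 and LYN of -0.29, and none of these was called. The call of FYN was lost without 4 of the 5 libraries in turn, with adjusted p up to 0.0908.

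The other called genes of the list changed by less than 1 and are named after their values were seen. PTPRF, the receptor phosphatase LAR, rose by 0.63. TIAM1, an exchange factor for RAC1, fell by 0.89. NGEF, the exchange factor ephexin that binds EPHA4, fell by 0.75. RASA1, a GTPase-activating protein for Ras, fell by 0.69, and RGS3, which binds the tails of B-type ephrins, fell by 0.52. TIAM1 lost its call in 4 of the 5 fits without 1 library, and the others lost theirs in all 5. None of the 8 called genes was called by Ballgown's model.

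**Figure D5:**
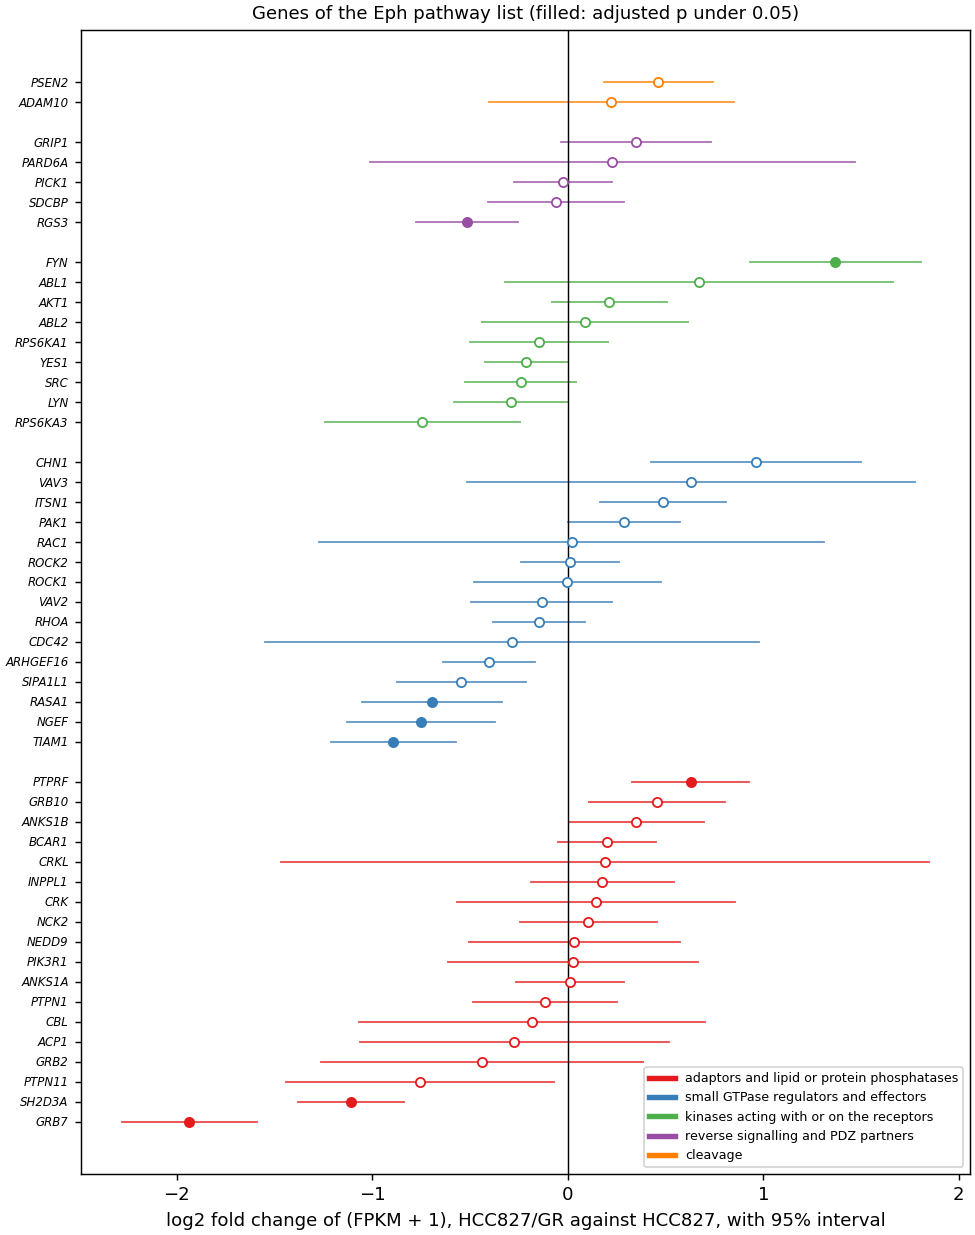
Log2 fold change of (FPKM + 1) in HCC827/GR against HCC827 cells for tested genes of the Eph pathway list, grouped and coloured by role, with limma's 95% interval as a bar and filled circles where the adjusted p was under 0.05. GRB7 at -1.93 and FYN at 1.37 are the lowest and the highest, and most genes lie near 0.

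Markers of the labelled cell type were read in the same libraries. Of the epithelial markers, EPCAM (log2 fold change -3.04), CDH1 (-1.93), KRT19 (-1.52) and KRT18 (-0.93) fell in HCC827/GR cells by limma's adjusted p. KRT8 had a log2 fold change of -0.75 and an adjusted p of 0.101, and KRT7 was not analysed here. The 5 markers summed to 543, 573 and 443 FPKM in HCC827/GR cells and to 1063 and 1182 in HCC827 cells, and KRT18 was the most abundant with 255 against 488. All 5 were still detected in every library. CDH1 and KRT19 lost their call without 2 of the libraries in turn and KRT18 lost it without each of the 5, while EPCAM kept it throughout.

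The entry of NKX2-1, a lung lineage factor, had 0.963, 0.762 and 0.415 FPKM in HCC827/GR cells and 4.60 and 4.003 in HCC827 cells. It fell by 1.64 on the log2 scale (limma adjusted p = 0.0115), a call lost without either HCC827 library, with adjusted p up to 0.0798. The entry also joins transcripts of SFTA3 and AL132857.1, so the fall cannot be given to NKX2-1 alone. The surfactant gene SFTPB was at or below 0.139 FPKM in all libraries, and NAPSA was not analysed here. The part of this shift in the lower EFNB2, EPHA1 and EPHB3 levels was not tested.

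Most markers of other cell types were at or near 0. The 6 fibroblast markers summed to between 0.792 and 1.17 FPKM, with COL1A1 the most abundant and DCN listed at 0 in 2 libraries. Among them PDGFRB was higher in every HCC827/GR library, at 0.216 ± 0.0542 FPKM (SD, n = 3) against 0.0112 ± 0.00492 (SD, n = 2). LUM went the other way, with 0.0129, 0.0123 and 0.0255 FPKM against 0.0930 and 0.257, and so did COL3A1, with 0.0199, 0.112 and 0.0523 against 0.149 and 0.124. All of these were below the level for testing, and they had no common direction. Of the endothelial markers, VWF, CDH5 and KDR were below 0.09 FPKM, with KDR higher in HCC827/GR cells, at 0.0719 ± 0.0125 (SD, n = 3) against 0.00336 ± 0.00475 (SD, n = 2), and CDH5 lower, at 0.00649, 0 and 0 against 0.0749 and 0.0483. PECAM1 had 10 entries, and the one with its Ensembl transcripts had 0.0269, 0.0143 and 0.0218 FPKM in HCC827/GR cells and 0.249 and 0.145 in HCC827 cells. Its most abundant entry, without such a transcript, had 4.34 and 3.32 FPKM in HCC827 cells and was listed at 0 in each HCC827/GR library. The limma adjusted p of this difference was 0.00390, but that entry reached the minimum level only through HCC827 cells. This p therefore supports nothing further. The leukocyte marker PTPRC was at or below 0.0228 FPKM, CD3E was not analysed here, and the entry of CD68 had between 30.8 and 38.9 FPKM. That entry joins transcripts of CD68 and 5 other genes, so its level cannot be given to CD68.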

How the data were processed

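RNA from 3 HCC827/GR and 2 HCC827 libraries was examined. The authors deposited FPKM values for 37181 entries, made by trimming with Cutadapt, mapping with Bowtie2 and TopHat2, assembly with StringTie and estimation with StringTie and Ballgown. The submitters' processing notes list hg18. The table holds no coordinates, so positions came from GENCODE release 29 (GRCh38) through the Ensembl transcript identifiers, which placed 31399 entries. In the table, 1 FPKM column, headed as replicate 1 of the HCC827 cells, matched no sample and was not used.

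Values were tested as log2(FPKM + 1) for the 16189 entries averaging 0.5 FPKM or more, with limma 3.58.1 in R 4.3.3 (trend, two-sided, Benjamini-Hochberg). The test was checked on simulated data with changes placed only in more abundant entries, so the check did not cover low members such as EPHA1 and EPHB3. Tables and plots used Python 3.11.15, pandas 2.3.3, numpy 2.4.6 and matplotlib 3.10.9. The depth behind each value is unknown. Between 8896 and 9803 entries per library were listed at 0. Across entries, Pearson's r was between 0.913 and 0.927 within a cell line and between 0.851 and 0.873 between them.

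The members and lists were chosen with earlier results of these data known. The rule named all family genes, the markers, and listed pathway genes with an adjusted p under 0.05 and a change of at least 1, and other names were chosen after seeing values. Some listed genes are not reported here. Promoter sequences came from RefSeq (GRCh38.p14). Alternatives were another pseudocount, filter, scaling, model or sum of entries, a replicate block, and each library left out.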

Additional observations from a re-analysis of the deposited data

How the results depend on the processing

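The log2 fold changes of the 10 members were recomputed in 147 comparisons with a test, of which 136 kept their direction and their side of the threshold. EFNA5 reversed to -0.41 with all its entries summed, and EFNB3 ranged from -0.089 (without HCC827 replicate 3) to 0.28 with each library left out. Ballgown's model called 4 entries higher and 9 lower by the adjusted p, and 0 members lower. At an unadjusted p under 0.05 it gave 4 members lower and 0 higher, beside 8.74% and 9.44% of all entries. The replicate numbers are shared by 2 pairs of libraries, and the labels do not say that they mark a common culture or day. The difference of replicate 2 from replicate 3 correlated at 0.0274 between the cell lines across 16189 entries, so the numbers were not taken as pairs. With the replicate block limma called 0 entries higher, 0 lower and 0 members lower, where 1676 entries were higher and 1869 lower at an unadjusted p under 0.05. HCC827/GR replicate 1 had no partner in the block, and fold changes there equalled those without that library, such as -1.38 for EFNB2. An effect of pairing on the calls cannot be told apart from that loss and the added terms of the fit. The adjusted p under the block was 0.124 for EFNB2, 0.143 for EPHA1 and 0.145 for EPHB3.

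With each library left out in turn, 202 to 485 entries were higher and 287 to 477 lower by the adjusted p, members lower ranged from 1 to 3 and members higher from 0 to 1, by the fold rule also from 0 to 1. Without HCC827/GR replicate 1, EFNB2 was the member still called, and the member called higher without HCC827 replicate 3 was EFNA5. A pseudocount of 0.1 gave 860 entries higher and 1024 lower by the fold rule with 1 member higher, EPHA4, and 4 lower, EFNB1 being the added one. The ratio of the mean FPKM as the fold, chosen after seeing the data, gave 919 entries higher and 1201 lower with 1 member higher and 4 lower, and rescaled protein-coding genes gave 375 lower. With a mean of at least 1 FPKM, EPHA1, EPHB3 and EPHA4 were not tested, and 1 member was lower by either rule.

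FPKM without read counts limits the low genes most, and no counting error or detection limit is given for EPHA1 and EPHB3 in HCC827/GR cells. With 2 HCC827 libraries, 1 library decides the value of EFNA5.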
